A study of Schizosaccharomyces pombe with 8 samples.

Results

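Small nucleolar RNAs (snoRNAs) of fission yeast were examined for their recovery with Lsm8, the Sm-like protein that is found in the nuclear Lsm2-8 ring and not in its cytoplasmic relative. The snoRNAs were taken as all genes whose systematic ID begins with SPSNORNA, with SPSNORNA.39 left out, which gave 52 of the 7014 genes listed for the immunoprecipitations. The comparison was between 1 Lsm8 immunoprecipitation (IP) and 1 control IP, both made with beads coated with anti-c-Myc antibody from native extract and read as unstranded libraries. The Lsm8 IP came from strain PP585 (lsm8-myc13-natMX6, so that Lsm8 carries a myc tag), an h- strain with the markers ade6-M216, leu1-32, ura4-D18 and his3-D1, whereas the strain behind the control IP is not named in the sources used here. Steady-state levels came from stranded, ribo-depleted RNA-seq of 3 pof8Δ libraries (strain PP1723, pof8::kanMX6, with the whole open reading frame replaced) and 3 pof8+ libraries (strain PP138), both h- with those markers, which were grown in rich YES medium. With 1 library per IP no test was possible, so each ratio below compares those libraries, and its 95% exact Clopper-Pearson interval covers counting error only.

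snoRNAs are short nuclear RNAs that guide chemical modification of other RNAs, mostly ribosomal RNA. Box C/D snoRNAs carry the C and D motifs near their ends and direct 2′-O-methylation by fibrillarin, in a particle with Nop56, Nop58 and Snu13. Box H/ACA snoRNAs fold into hairpins, carry an ACA motif close to the 3′ end and direct pseudouridylation by Cbf5 together with Gar1, Nhp2 and Nop10. The Lsm2-8 ring is best known for binding the uridine-rich 3′ end of U6 spliceosomal RNA, and in the study it was followed for its binding to telomerase RNA.

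Of the 52 snoRNAs, 25 could be placed as box C/D and 19 as box H/ACA, and 8 stayed unplaced. For 16 of the box C/D snoRNAs the placement rested on TGATGA within the first 20 bases together with CTGA within the last 15 bases of the RNA strand, so the presence of these letters is no result for them. The class of 8 others followed the name of the budding yeast counterpart, and that of 1 followed the RefSeq description. RefSeq describes 18 of the 19 box H/ACA snoRNAs as such. Across 12606 annotated genes, 0.444% hold TGATGA, 3.44% hold CTGA and 0.175% hold both in these windows. From the box C/D group, 3 that were high in the Lsm8 IP are shown first, from RefSeq ASM294v3 by gene ID, with TGATGA and CTGA in capitals.
snoU14: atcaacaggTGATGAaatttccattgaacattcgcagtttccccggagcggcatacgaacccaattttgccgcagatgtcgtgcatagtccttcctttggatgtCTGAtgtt
snoR56: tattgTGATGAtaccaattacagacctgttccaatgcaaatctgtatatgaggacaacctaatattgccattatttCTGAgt
snoR69: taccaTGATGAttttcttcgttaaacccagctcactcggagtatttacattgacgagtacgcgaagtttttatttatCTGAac
They are 112, 82 and 83 bases long, and the last letter of CTGA lies 4, 2 and 2 bases from the 3′ end.

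From the box H/ACA group, 5 snoRNAs with at least 10 control IP reads are shown next, with the last ACA within 10 bases of the 3′ end in capitals. The first 3 are those with a ratio of Lsm8 IP over control IP, as defined below, above 2.
sno12: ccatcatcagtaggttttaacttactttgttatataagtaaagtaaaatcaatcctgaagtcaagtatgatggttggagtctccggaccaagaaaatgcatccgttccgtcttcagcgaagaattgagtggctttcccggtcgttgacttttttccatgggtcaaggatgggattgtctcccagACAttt
snR42: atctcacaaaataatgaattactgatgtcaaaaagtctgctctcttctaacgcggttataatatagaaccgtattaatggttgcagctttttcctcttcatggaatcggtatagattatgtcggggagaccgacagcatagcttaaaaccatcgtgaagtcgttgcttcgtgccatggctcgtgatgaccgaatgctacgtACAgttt
snR101: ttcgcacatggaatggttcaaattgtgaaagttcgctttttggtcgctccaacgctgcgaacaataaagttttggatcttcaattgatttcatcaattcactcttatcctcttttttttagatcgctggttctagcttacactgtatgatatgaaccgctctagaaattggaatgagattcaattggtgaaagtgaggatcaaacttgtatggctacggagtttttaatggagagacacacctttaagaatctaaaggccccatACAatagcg
The other 2 had the lowest ratios of all snoRNAs.
snR92: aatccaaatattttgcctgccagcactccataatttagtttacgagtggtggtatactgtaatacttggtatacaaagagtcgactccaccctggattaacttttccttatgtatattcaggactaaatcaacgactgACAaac
snR94: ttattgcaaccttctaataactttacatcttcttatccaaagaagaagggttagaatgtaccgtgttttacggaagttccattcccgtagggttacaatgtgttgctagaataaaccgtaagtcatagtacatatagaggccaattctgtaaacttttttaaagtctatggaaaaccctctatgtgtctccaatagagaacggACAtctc
ACA was followed by exactly 3 bases in sno12 and snR92, by 4 in snR42 and snR94 and by 6 in snR101. Over the box H/ACA snoRNAs with reads in both IPs, ACA followed by exactly 3 bases was found in 2 of the 4 with a ratio above 2 and in 3 of the 8 with a ratio below 1, against 1.90% of all annotated genes. The spacing thus occurred in both the higher and the lower snoRNAs.

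The Lsm8 IP library held 6604836 reads on listed genes and the control IP library 942080 reads, leaving out the 98 genes whose control count could not be worked back. Genes with SPSNRNA IDs, the class that includes U6, took 70.6% of the Lsm8 IP reads and 2.62% of the control IP reads. A normalised count is the read count divided by the median of its library over all listed genes, 96 reads for the Lsm8 IP library and 37 reads for the control IP library, and the ratio is the normalised count of the Lsm8 IP over that of the control IP. Over the 5523 genes with at least 10 control reads the median ratio was 0.849.

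Of the 52 snoRNAs, 21 had reads in both IPs, 1 had Lsm8 IP reads alone, 2 had control IP reads alone and 28 had none in either. The snoRNA with Lsm8 reads alone was snR30, whose budding yeast counterpart is needed for pre-rRNA cleavage, and its 2 Lsm8 IP reads and 0 control IP reads were too few for a ratio. snoR54b (box C/D) and snR97 (box H/ACA) were listed with 0 Lsm8 IP reads and a control count that could not be worked back. A count of 0 allows up to 3 counted reads, which per 1000000 reads is 0.454 reads in the Lsm8 IP, against 3.18 in the control IP. Only unambiguous reads were counted. This bound therefore does not limit snoRNAs that lie inside another gene on the same strand or are also listed under a second ID. The position of the gene went with detection. Among the 23 snoRNAs that lie inside another listed gene on the same strand, 22 had no reads in either IP, whereas 23 of the other 29 had reads.

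Together the snoRNAs held 26604 reads in the Lsm8 IP, against 4046 reads in the control IP. This was 0.403% (0.398 to 0.408) of all Lsm8 IP reads and 0.429% (0.416 to 0.443) of all control IP reads. On normalised counts the ratio of the sums was 2.53 (2.45 to 2.62). The make-up of these reads differed more than their share did. snoU14 supplied 25.5% of the snoRNA reads in the Lsm8 IP, against 3.51% in the control IP. sno12 was the largest contributor to both, with 37.3% in the Lsm8 IP, against 31.2% in the control IP, and snR42 supplied 14.8% in the Lsm8 IP, against 11.5% in the control IP. The 3 together reached 77.6% of the snoRNA reads of the Lsm8 IP, against 46.2% in the control IP. Without snoU14, left out after its value was seen, the ratio of the summed reads was 1.96.

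**Figure D1:**
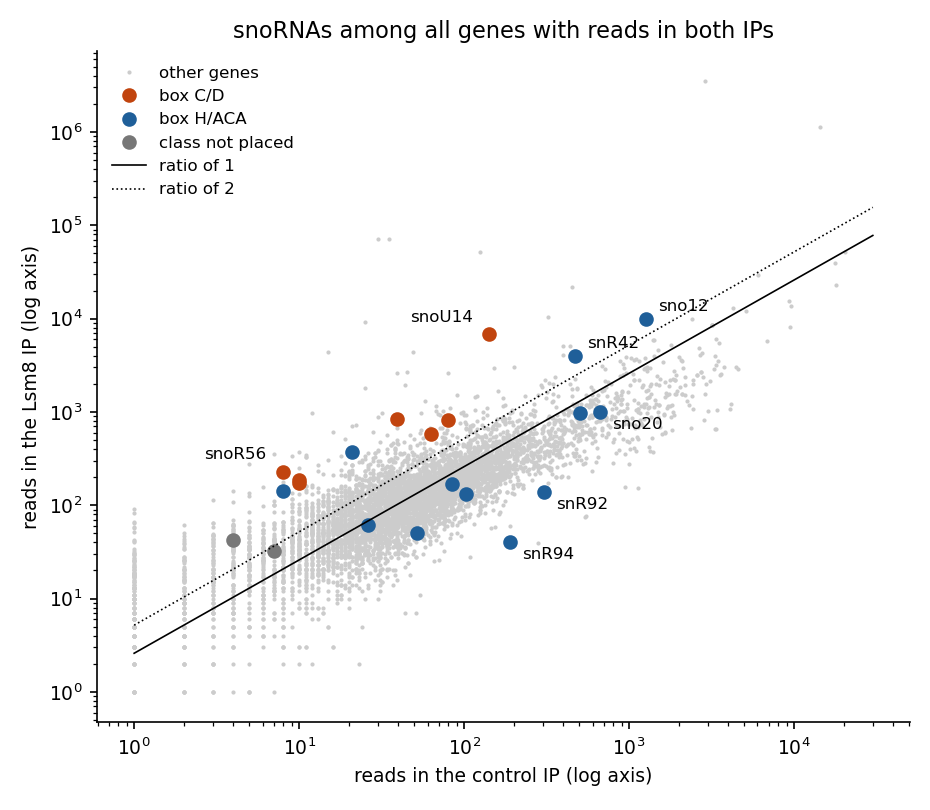
Reads of each gene in the Lsm8 IP (vertical, log axis) against the control IP (horizontal, log axis), with 1 point for each of the 6323 genes with reads in both and the 21 snoRNAs in colour by box class; the lines mark ratios of 1 and 2. Every box C/D snoRNA lies above the line for 2, with snoU14 (6772 Lsm8 IP reads and 142 control IP reads) farthest from it, while box H/ACA snoRNAs lie on both sides.

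The 17 snoRNAs with at least 10 control reads spread from a ratio of 0.0816 for snR94 to 18.4 for snoU14, a 225-fold range, with a median of 3.04. Of these 17, 9 had a ratio above 2, where 10.4% of all genes with at least 10 control reads did, and 4 had a ratio below 0.5, where 18.7% of all such genes did. The intervals of all 9 snoRNAs lay above 2, and 6 of the other 8 had intervals wholly below 1. In order of ratio, snR96 (0.904) and sno12 (3.04) were neighbours in this set. The interval between them was drawn from their own ratios, so that it holds no other snoRNA of the set is no result. snoR02, left out with 7 control reads, lay inside it at 1.76. The rule of the study for enrichment, a normalised count higher by 10 or more and a ratio above 2, was met by snoU14, sno12 and snR42, which is 3 of 52 snoRNAs against 0.499% of all 7014 genes. Scaling by all reads of each library instead of by the medians lowers every ratio by 2.70-fold. It leaves 5 snoRNAs above 2, against 0.996% of all genes with at least 10 control reads, and 1, snoU14, past the rule of the study. A scaling multiplies all ratios by 1 factor, so the order of the snoRNAs cannot change with it.

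**Figure D2:**
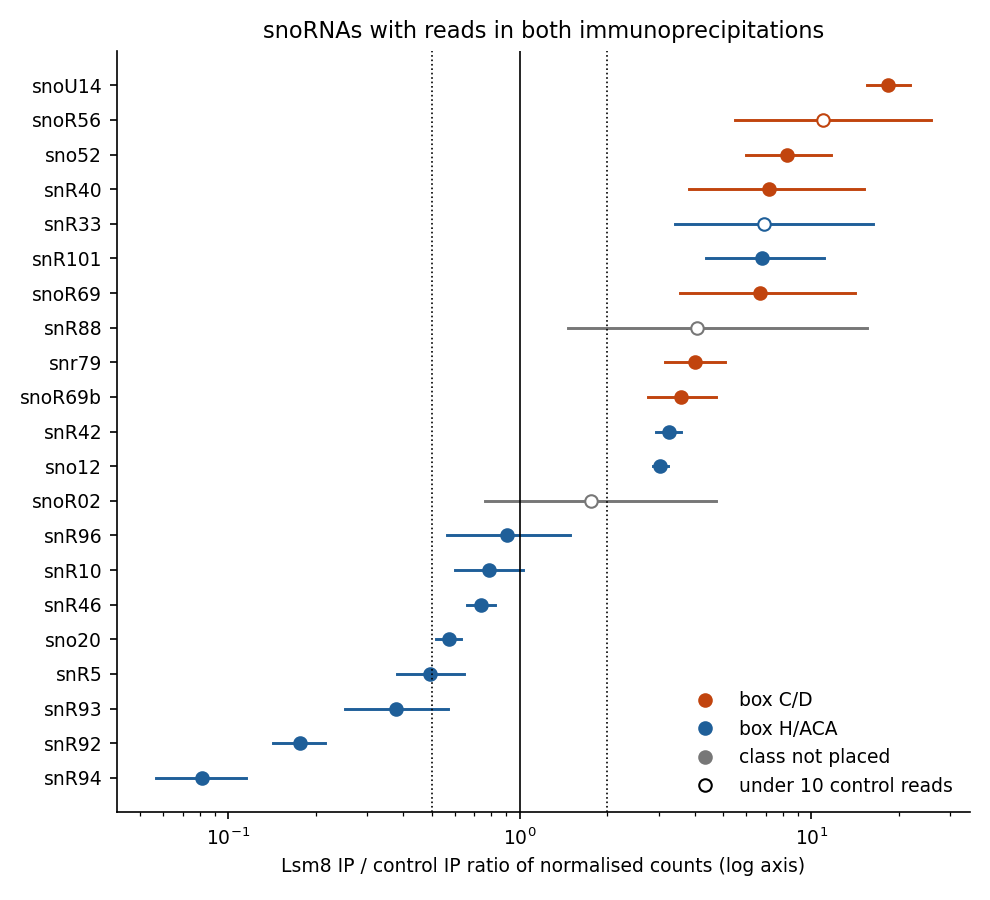
Ratio of normalised counts, Lsm8 IP over control IP (horizontal, log axis), for the 21 snoRNAs with reads in both, ordered by ratio, with 95% counting intervals as bars; colour gives the box class, open circles have under 10 control reads, the solid line marks 1 and the dotted lines 0.5 and 2. Ratios run from 0.0816 (snR94) to 18.4 (snoU14), and all filled circles lie either at or below 0.904 or at or above 3.04.

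Every box C/D snoRNA with reads in both IPs was higher in the Lsm8 IP, which covers 7 of the 25. Another 17 had no reads in either IP, and snoR54b had control IP reads alone. All 7 had ratios above 2, from 3.58 to 18.4 with a median of 7.17, and their summed 9607 Lsm8 IP reads against 352 control IP reads gave a ratio of 10.5 (9.46 to 11.7). Box C/D snoRNAs supplied 36.1% of the snoRNA reads in the Lsm8 IP, against 8.70% in the control IP. snoU14 carried most of this sum, and without it the remaining 2835 Lsm8 IP reads and 210 control IP reads gave 5.20 (4.52 to 6.01).

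snoU14, whose counterpart in budding yeast is required for early cleavage of pre-rRNA, had 6772 Lsm8 IP reads and 142 control IP reads, a ratio of 18.4 (15.6 to 21.9). Among all genes with at least 10 control reads, 13 had a higher ratio, 3 of them protein-coding. Per kilobase of gene, snoU14 had more Lsm8 IP reads than any other snoRNA, 60464 against 52268 for sno12. In the control IP this order was the other way round, with 1268 reads per kilobase for snoU14 and 6637 for sno12.

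Among the box C/D snoRNAs with at least 10 control reads, the next 4 are relatives of budding yeast guides for rRNA methylation. sno52 had 836 Lsm8 IP reads and 39 control IP reads, a ratio of 8.26 (5.99 to 11.7). snR40 had 186 Lsm8 IP reads and 10 control IP reads, a ratio of 7.17 (3.81 to 15.2). snoR69 had 173 Lsm8 IP reads and 10 control IP reads, a ratio of 6.67 (3.54 to 14.2). The intervals of these 3 overlapped one another, and all lay below that of snoU14. snr79 had 827 Lsm8 IP reads and 80 control IP reads, a ratio of 3.98 (3.16 to 5.08). snoR69b, the lowest of the class, had 585 Lsm8 IP reads and 63 control IP reads and a ratio of 3.58 (2.76 to 4.72). Of these, sno52 and snr79 lie opposite a coding gene, and reads from either strand cannot be told apart for them. The 5 box C/D snoRNAs with reads in both IPs that overlap no listed gene had ratios of 3.58 to 18.4, all above 2.

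Box H/ACA snoRNAs lay on both sides of 1. Of 12 with reads in both IPs, 4 had ratios above 2 and 8 had ratios below 1, with a median of 0.762. Ratios below 1 were also found for 60.8% of all genes with at least 10 control reads, so the count below 1 is near the share of all genes, and 7 of the 12 lay below the median of all genes. The 8 below 1 became 7 when the libraries were scaled by reads outside SPSNRNA genes, where the median of all genes was 1.04, and 5 when scaled by protein-coding reads, where it was also above 1 and snR96, snR10 and snR46 lay above 1. Their 16923 Lsm8 IP reads and 3683 control IP reads gave a ratio of 1.77 (1.71 to 1.84). Both this ratio and the median lay below those of the box C/D snoRNAs, while the 4 higher members lay within the box C/D range or close under it. Among the 9 that overlap no listed gene, 4 were above 2 and 5 below 1.

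The 4 above 2, the higher set, held most of the box H/ACA reads, 14376 in the Lsm8 IP, against 1757 in the control IP, for a summed ratio of 3.15 (3.00 to 3.32). sno12, also named snR99, had the most reads of any snoRNA, 9931 in the Lsm8 IP, against 1261 in the control IP, and a ratio of 3.04 (2.86 to 3.22). snR42, whose budding yeast counterpart guides rRNA pseudouridylation, had 3933 Lsm8 IP reads and 467 control IP reads and a ratio of 3.25 (2.95 to 3.58). The intervals of these 2 overlap. snR101 had 369 Lsm8 IP reads and 21 control IP reads, a ratio of 6.77 (4.36 to 11.1). On blots the study used snR101 as a loading control and as a specificity control for the Pof8 IP, not for the Lsm8 IP. snR33, another relative of a pseudouridylation guide, had 143 Lsm8 IP reads and 8 control IP reads, a ratio of 6.89 (3.40 to 16.3). Neither snR101 nor snR33 met the minimum difference in the rule of the study, since their normalised counts in the Lsm8 IP were 3.84 and 1.49.

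The 8 below 1, the lower set, held 2545 Lsm8 IP reads and 1926 control IP reads, a summed ratio of 0.509 (0.480 to 0.541). At its top, snR96 had 61 Lsm8 IP reads and 26 control IP reads and a ratio of 0.904 (0.563 to 1.49), and snR10, whose budding yeast counterpart acts in pre-rRNA processing, had 171 Lsm8 IP reads and 84 control IP reads and a ratio of 0.785 (0.601 to 1.03). Both intervals include 1 and the median ratio of all genes. snR46, a relative of a pseudouridylation guide, had 963 Lsm8 IP reads and 502 control IP reads, a ratio of 0.739 (0.663 to 0.825). sno20, also named snR35, had 988 Lsm8 IP reads and 666 control IP reads and a ratio of 0.572 (0.518 to 0.632). After sno12 these were the most abundant snoRNAs of the control IP, and both ratios lay below the median of all genes, 0.849.

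At the bottom of the lower set stood snR5, snR93, snR92 and snR94. snR5 had 132 Lsm8 IP reads and 103 control IP reads, a ratio of 0.494 (0.379 to 0.645). In budding yeast, snR5 has been found with a ring of Lsm2 to Lsm7. snR93 had 51 Lsm8 IP reads and 52 control IP reads and a ratio of 0.378 (0.252 to 0.567). snR92 had 139 Lsm8 IP reads and 304 control IP reads, a ratio of 0.176 (0.143 to 0.216), and 64 of the 5523 genes with at least 10 control reads had a lower one. snR94 had 40 reads in the Lsm8 IP against 189 in the control IP, a ratio of 0.0816 (0.0565 to 0.115), and 16 genes had a lower one. Both snR92 and snR94 thus had fewer reads in the Lsm8 IP, the library with 7.01 times as many reads in all. Of its reads, 70.6% were on SPSNRNA genes, and the library medians over all listed genes were closer, 96 reads against 37.

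**Figure D3:**
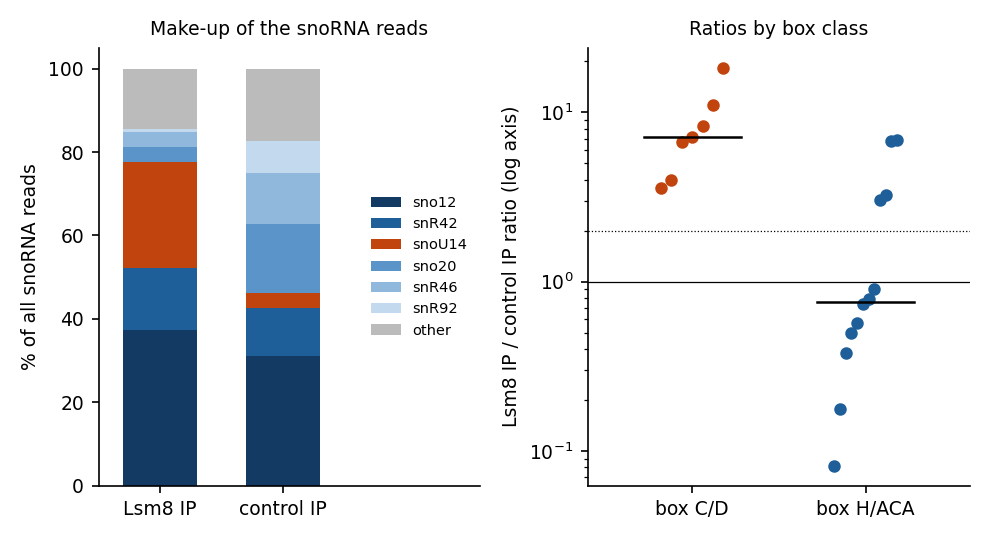
Left, share of all snoRNA reads (percent) taken by 6 snoRNAs and the rest in the Lsm8 IP and the control IP, box C/D snoU14 in red and box H/ACA snoRNAs in blue; right, ratio of Lsm8 IP over control IP (log axis) for each snoRNA with reads in both, by box class, with the median as a bar. snoU14 takes 25.5% of the Lsm8 IP bar and 3.51% of the control IP bar, and the class medians are 7.17 for box C/D and 0.762 for box H/ACA.

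Few control reads limited 4 ratios. snoR56, a box C/D relative of a methylation guide, had 228 reads in the Lsm8 IP, against 8 in the control IP, which gave the second highest ratio, 11.0, with an interval of 5.48 to 25.8. snR33, described above, also had 8 control reads. snR88, of unplaced class, had 42 Lsm8 IP reads and 4 control IP reads and a ratio of 4.05 (1.47 to 15.5). snoR02, likewise unplaced, had 32 Lsm8 IP reads and 7 control IP reads and a ratio of 1.76 (0.764 to 4.73), the only one between snR96 and sno12. Its interval spans 1, so that a difference between the IPs was not detectable at this depth. With the threshold set at 20 control reads in place of 10, snR40 and snoR69 drop out and the median ratio of the remaining snoRNAs is 0.904.

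Reads in the IPs carry no strand, and 7 of the 24 snoRNAs with reads lie opposite a listed gene. For sno20 the opposite gene, SPBC1921.04c, was listed with the very same reads, 988 in the Lsm8 IP, against 666 in the control IP. taf9, opposite sno52, had 1099 Lsm8 IP reads and 82 control IP reads, a ratio of 5.17 (4.12 to 6.55). gpi12, opposite snr79, had 981 Lsm8 IP reads and 96 control IP reads and a ratio of 3.94 (3.19 to 4.91), and SPNCRNA.1487, opposite snR92, had 173 Lsm8 IP reads and 321 control IP reads and a ratio of 0.208 (0.172 to 0.251). In each of these pairs the ratios of the snoRNA and its opposite gene were on the same side of 1. Reads without strand can count for both genes of a pair, so this agreement is no separate result. alg3, opposite snoR02, had 64 Lsm8 IP reads and 13 control IP reads, and tim17, opposite snR96, had 251 Lsm8 IP reads and 114 control IP reads. Counted over the snoRNAs that overlap no listed gene, all 5 box C/D snoRNAs with reads in both IPs stayed above 2.

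Of the 28 snoRNAs without reads, 17 were box C/D, and for the 22 held inside a longer gene the only values are those of that gene. The gene snoZ (SPNCRNA.659), which contains snoZ8, snoZ7, snoZ5, snoZ4 and snoZ3, had 532 Lsm8 IP reads and 75 control IP reads, a ratio of 2.73 (2.14 to 3.53). SPNCRNA.723, which contains snR41, snR70 and snR51b, had 114 Lsm8 IP reads and 3 control IP reads, a ratio of 14.6 (4.89 to 72.1). SPNCRNA.814, which contains snR98, had 61 Lsm8 IP reads and 6 control IP reads, a ratio of 3.92 (1.70 to 11.1). Of the 7 non-coding genes that contain a snoRNA, 4 had a ratio above 2, but 3 of these had only 3, 6 and 9 control IP reads. With at least 10 control reads it was 1 of 3, where 14.3% of all SPNCRNA genes with as many control reads were above 2. RefSeq gives 5 other SPNCRNA IDs as synonyms of a snoRNA, all with few control reads. SPNCRNA.1038, a synonym of the box H/ACA snoRNA snR90, had 275 Lsm8 IP reads and 5 control IP reads, a ratio of 21.2 (8.97 to 65.8). SPNCRNA.1436, a synonym of the box H/ACA snoRNA snR95, had 12 Lsm8 IP reads and 8 control IP reads, a ratio of 0.578 (0.217 to 1.63), and SPNCRNA.906, a synonym of snR30, had 10 Lsm8 IP reads and 2 control IP reads, a ratio of 1.93 (0.411 to 18.1). The remaining synonyms, SPNCRNA.727 of snoZ16 and SPNCRNA.901 of snR91, had 9 and 3 Lsm8 IP reads and 0 control IP reads each. Among the containing genes, lower values were found for SPNCRNA.1650 and SPNCRNA.617. SPNCRNA.1650, which contains the box C/D snoRNA snoR68, had 26 Lsm8 IP reads and 11 control IP reads, a ratio of 0.911 (0.435 to 2.04). SPNCRNA.617, which contains the box H/ACA snoRNA snR97, had 215 Lsm8 IP reads and 161 control IP reads, a ratio of 0.515 (0.418 to 0.635). The 10 protein-coding genes that contain a snoRNA had ratios from 0.198 (rpl701, which contains snoR39b) to 3.47 (spt20, which contains snoU24), with a median of 0.654. Above 2 were 2 of them, spt20 and ero11, which contains snoU18. Among all protein-coding genes with at least 10 control reads, 9.38% were above 2 and the median was 0.844. In genes that contain a snoRNA, reads of the snoRNA and of the host transcript cannot be told apart.

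Messenger RNAs for snoRNA-binding proteins were examined beside the snoRNAs. Over 27 genes for core proteins of small nucleolar ribonucleoproteins (snoRNPs), their assembly and maturation factors and the Lsm proteins, the median ratio was 0.595, with 2 above 2 and 8 below 0.5. Among all protein-coding genes with at least 10 control reads the median was 0.844, 9.38% were above 2 and 18.6% were below 0.5, so the count above 2 is near the share of all coding genes. The 8 core genes lay between 0.251 (nop56, 285 Lsm8 IP reads and 437 control IP reads) and 0.996 (nop10, 106 Lsm8 IP reads and 41 control IP reads), with a median of 0.420. fib1, which encodes fibrillarin, had 779 Lsm8 IP reads and 449 control IP reads, a ratio of 0.669 (0.595 to 0.753), and cbf5, the pseudouridine synthase gene, had 1220 Lsm8 IP reads and 898 control IP reads and a ratio of 0.524 (0.480 to 0.571). The 2 genes above 2 were lsm2 and lsm8. lsm2 had 246 Lsm8 IP reads and 26 control IP reads, a ratio of 3.65 (2.43 to 5.69), and lsm8 had 90 Lsm8 IP reads and 12 control IP reads, a ratio of 2.89 (1.58 to 5.80). The other ring subunit genes, lsm3 to lsm7, ranged from 0.312 (lsm7) to 1.21 (lsm6), none above 2.

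**Figure D4:**
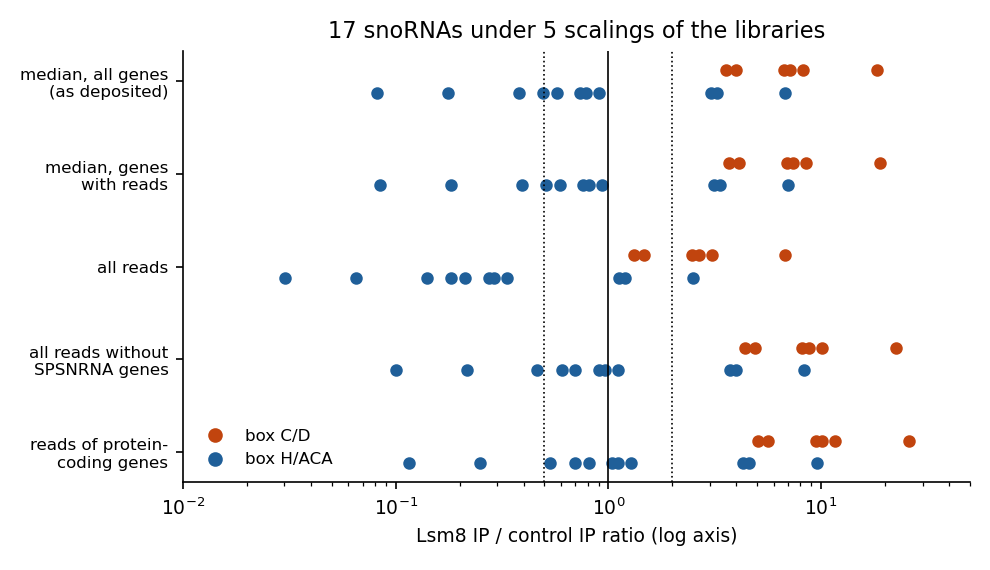
Ratios of the 17 snoRNAs with at least 10 control reads (horizontal, log axis) under 5 ways of scaling the libraries, box C/D above and box H/ACA below each line; the solid line marks 1 and the dotted lines 0.5 and 2. A scaling multiplies all ratios by 1 factor. With all reads the 2 sets lie on either side of 1, the higher from 1.12 and the lower up to 0.335. The median of all genes is then 0.314, so 1 is not the level of a typical gene. The top of the lower set lies above this median. The lower set reaches 1.11 with reads outside SPSNRNA genes and 1.28 with protein-coding reads. In both of these scalings the median of all genes is above 1.

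Whether the snoRNAs that met the enrichment rule depend on Pof8, a La-related protein that promotes the binding of Lsm2-8 to telomerase RNA, was examined in the RNA-seq. Counts were analysed for 40 of 44 RNAs that the study marked in the Lsm8 IP, a longer list than the 35 genes that met its enrichment rule. snoU14, sno12 and snR42 are present because of their Lsm8 IP values, and the counts of pof8 itself were not analysed here. The libraries held 62672693 to 72951191 reads for pof8Δ and 49448968 to 60098565 reads for pof8+, and counts were set relative to these totals. snoU14 had 1708, 1436 and 1720 reads in pof8Δ cells and 1198, 1635 and 991 reads in pof8+ cells. sno12 had 16864, 14024 and 16571 reads in pof8Δ cells and 14681, 18539 and 11501 reads in pof8+ cells. snR42 had 4042, 3000 and 4105 reads in pof8Δ cells and 3282, 4088 and 2835 reads in pof8+ cells. Relative to the totals, the groups overlapped for each of the 3.

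No change in level was called for any of the 3 snoRNAs. snoU14 averaged 24.4 ± 2.08 counts per 1000000 reads (CPM) in pof8Δ cells and 23.7 ± 3.59 CPM in pof8+ cells (SD, n = 3 libraries each), a log2 fold change of 0.042 (SE 0.142, 95% interval -0.26 to 0.34, adjusted p = 0.858 by edgeR's quasi-likelihood test). sno12 averaged 238.5 ± 22.7 CPM in pof8Δ cells and 277.9 ± 40.0 CPM in pof8+ cells, a log2 fold change of -0.22 (SE 0.117, interval -0.47 to 0.027, edgeR adjusted p = 0.286). snR42 averaged 55.9 ± 7.79 CPM in pof8Δ cells and 63.6 ± 5.58 CPM in pof8+ cells, a log2 fold change of -0.19 (SE 0.130, interval -0.46 to 0.088, edgeR adjusted p = 0.424). By edgeR 0 of the 3 passed the threshold of an adjusted p below 0.05 with an absolute log2 fold change above 1, and 0 of 3 had an unadjusted p below 0.05, also by DESeq2. Over the 40 RNAs, 2.5% were called lower, 0% were called higher, and for 25% the 3 libraries of one group did not overlap those of the other. The intervals leave room for changes of up to 0.34 upwards for snoU14 and 0.47 downwards for sno12 on the log2 scale. Leaving out pof8+ replicate 3 gave sno12 a log2 fold change of -0.33 with an edgeR adjusted p of 0.0282, short of the fold threshold. The log2 fold change of snoU14 turned to -0.065 without pof8+ replicate 3 and to -0.029 without pof8Δ replicate 1.

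**Figure D5:**
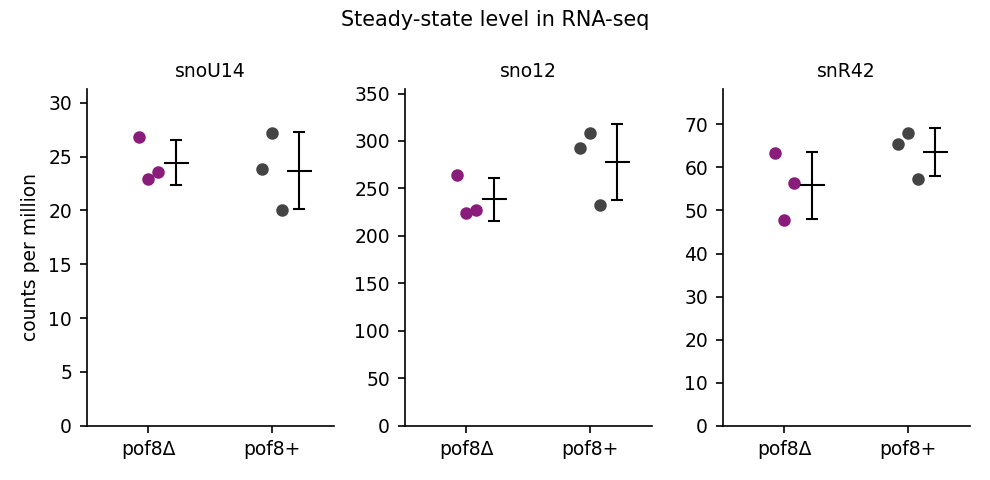
Read counts per 1000000 reads (CPM, vertical) of snoU14, sno12 and snR42 in 3 pof8Δ libraries and 3 pof8+ libraries, 1 point each, with the mean and SD beside them; axes start at 0. The points of the groups overlap in every panel, with means for snoU14 of 24.4 CPM in pof8Δ and 23.7 CPM in pof8+, for sno12 of 238.5 CPM in pof8Δ and 277.9 CPM in pof8+, and for snR42 of 55.9 CPM in pof8Δ and 63.6 CPM in pof8+.

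The RNA-seq also gives the order of the 3 snoRNAs in its libraries. How well such short RNAs were recovered from cells was not tested. Per length, sno12 was highest, with 1255 ± 119 RPKM (reads per kilobase of gene per 1000000 reads) in pof8Δ cells and 1463 ± 211 RPKM in pof8+ cells. snR42 had 269 ± 37.4 RPKM in pof8Δ cells and 306 ± 26.8 RPKM in pof8+ cells, and snoU14 had 218 ± 18.6 RPKM in pof8Δ cells and 212 ± 32.0 RPKM in pof8+ cells. sno12 was thus 5.76 times as high as snoU14 in the pof8Δ libraries and 6.91 times in the pof8+ libraries. In the IP libraries, reads per base of sno12 were 0.864 times those of snoU14 in the Lsm8 IP, against 5.23 times in the control IP. The RNA-seq and IP libraries differ in preparation, read length and strand, so these values stand side by side with no test.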

How the data were processed

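The authors aligned reads to ASM294v2 with STAR 2.5.2b and counted unambiguous, uniquely mapped reads per gene, for the IPs without strand. For the IPs they deposited a signal (the count over the library median) and the ratio of the Lsm8 IP to the control IP. For RNA-seq they deposited raw read counts for 40 RNAs and the average RPKM, beside their own edgeR 3.14.0 comparison (fold changes and p-values) and a mark of enriched genes, which were not used.

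Whole reads were worked back from signal and ratio. 100% of the Lsm8 IP values and 100% of the control values were whole within 0.001 of a read. A count test on them was not run, since each IP is 1 library. Intervals are exact Clopper-Pearson intervals of the share of the 2 counts. PCR reads without molecular identifiers are not independent molecules, so intervals and the floor of 3 reads cover counting error only. No pseudocount was used. RNA-seq totals were worked back from the average RPKM, which returned whole lengths for 40 of 40 RNAs. The main test was the quasi-likelihood test of edgeR 4.0.16, with p-values adjusted by Benjamini-Hochberg for all 40 RNAs, and the alternative was DESeq2 1.42.0, both run in R 4.3.3. A filter of 1 CPM in 3 libraries removed none. On simulated data this fit called 197 of 200 changed and 0 of 600 unchanged RNAs. Nothing says that the libraries came from separate cultures, so p-values measure the spread between libraries, which may be technical. No libraries of a group agreed within sampling noise.

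Gene names, classes, overlaps and sequences came from RefSeq ASM294v3 by gene ID (6846 of 7014 matched). Its coordinates served only to find overlaps and sequences. Other steps ran in Python 3.11.15 (pandas 2.3.3, NumPy 2.4.6, SciPy 1.17.1), and figures in Matplotlib 3.10.9. Full values were given for snoRNAs past the enrichment rule, the 10 highest and 10 lowest ratios, the 5 with most reads in each IP, snR101, those with under 10 control reads and at least 10 Lsm8 IP reads, and those with RNA-seq counts, and for genes that overlap them or are on the fixed list of snoRNP genes. The members and lists were chosen with earlier results of these data known. Alternatives covered the scaling, the minimum of control reads, the enrichment rule, overlapping genes, the most abundant snoRNA, 1 added read, the test, leaving out each library and a replicate block.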

Additional observations from a re-analysis of the deposited data

How the results depend on the processing

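With total reads as the scaling, 5 snoRNAs had a ratio above 2, where 0.996% of all genes with at least 10 control reads did. Below 0.5 were 8 snoRNAs, where 76.8% of all such genes were, and the median of all genes was 0.314. In the same scaling 1 snoRNA passed the enrichment rule, the median snoRNA ratio was 1.12 and the ratio of the summed reads was 0.938. Above 2 were 2 box H/ACA snoRNAs and 0 snoRNP genes. This scaling counts the SPSNRNA reads, which fill most of the Lsm8 IP library. Without them the median was 3.72 and the summed ratio 3.10. With protein-coding reads alone, 2 snoRNAs were below 0.5, where 7.62% of all genes were, the median was 4.29 and the summed ratio 3.58. A minimum of 20 control reads gave a median of 0.904. The enrichment rule took 5 snoRNAs with a minimum difference of 5 and 12 with none. The shares of all genes under these looser rules were not worked out. Leaving out sno12, which has the most reads in both IPs, gave a summed ratio of 2.31. Leaving out snoU14, chosen after seeing the data, gave 1.96 over all snoRNAs and 5.20 over box C/D snoRNAs. The scalings of the class and snoRNP counts were also added after seeing the data. Other counts and medians moved by less than 1.5-fold or within counting error. For single ratios, 1 added read kept 21 of 21 within their intervals, and total reads kept 1 of 21.

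In RNA-seq, 0 of the 3 snoRNAs were called under every alternative. Log2 fold changes with 1 library left out ranged from -0.065 to 0.15 for snoU14 (-0.065 without pof8+ replicate 3 and -0.029 without pof8Δ replicate 1, both of opposite sign), from -0.33 to -0.14 for sno12 and from -0.29 to -0.088 for snR42. The edgeR adjusted p ranged from 0.0282 to 0.751 for sno12 over these fits. With the replicate number as a block they were 0.051, -0.21 and -0.19. Same-numbered libraries did not all deviate together (correlations across RNAs of 0.334, -0.677 and 0.197), so the numbers were not taken as pairs. TMM factors over the 40 RNAs moved the median of all RNAs to 0.029, from -0.074, and gave 0.14, -0.13 and -0.092 for snoU14, sno12 and snR42. DESeq2 size factors gave 0.13, -0.14 and -0.10.

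Depth limits the control IP most: 4 snoRNAs had 4 to 8 control reads, and the 28 without reads are not shown to be absent from either IP.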
